A study of Mus musculus with 9 samples.

Results

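The genes described here are 10 genes of cholesterol efflux and of the liver X receptors (LXR), read in the mouse aortic arch. They were chosen by name, as the rows Abca1, Abcg1, Nr1h2, Nr1h3, Lpcat3, Pltp, Lipa, Nceh1, Ch25h and Cyp27a1 of a table of 21989 protein-coding genes. All 10 were in the table. All 10 also reached 1 FPKM (sequenced fragments scaled to gene length and to the library's total) in at least 3 libraries, as 12895 genes did, and so entered the tests. The lowest value of any of them was 1.081 FPKM, for Ch25h in control 3, so none passed the filter through 1 group alone.

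RNA sequencing was done on 9 libraries in 3 groups of 3. The high dose group was ApoE-/- mice fed high fat and dosed by gavage with ZCL, a preparation the labels do not spell out, at 5.12 g/kg/day over 15 weeks. The model group was ApoE-/- mice on that diet over 15 weeks without ZCL. The control group was C57BL/6J mice on standard diet, also over 15 weeks. ApoE-/- mice lack the apolipoprotein that carries remnant particles to liver receptors. Genotype and diet differed together between model and control and cannot be told apart. An atorvastatin group and lower ZCL doses were not analysed here, and neither age nor sex of the mice is given. Whether each library is a different mouse is not stated, so the p-values below speak only of the spread among these samples, which may be technical.

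A cell cannot break down the sterol ring, so it disposes of surplus cholesterol by exporting it. Cholesteryl esters are first hydrolysed, in the lysosome by the product of Lipa and in the cytosol by other hydrolases such as the product of Nceh1. Free cholesterol then leaves through the ABC transporters encoded by Abca1 and Abcg1, which load apolipoprotein A-I and high-density lipoprotein. The liver X receptors, encoded by Nr1h3 (LXR alpha) and Nr1h2 (LXR beta), are nuclear receptors that bind oxysterols, pair with retinoid X receptors and switch on Abca1, Abcg1, Pltp, Lpcat3, Srebf1 and other genes. Ch25h and Cyp27a1 encode enzymes that make oxysterols. In the arterial wall this route is best known from lipid-laden macrophages.

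Libraries of the same group differed in neighbouring tissue. The summed FPKM of 10 heart muscle genes was between 27.7 and 17580 in high dose, between 48.1 and 89.8 in model and between 32.5 and 29300 in control, and only high dose 1, the model libraries and control 3 had under 10 FPKM of the heart myosin gene Myh6. The smooth muscle actin gene Acta2, a defining marker of the aortic wall, was present throughout, at 177 to 982 FPKM in high dose, 812 to 1857 in model and 660.3 to 1272 in control. Apoe, read as a check of the labelled genotype, averaged 49.8 ± 38.1 FPKM in high dose, 25.6 ± 7.32 in model and 725 ± 345 in control (SD, n = 3 each), and the 6 ApoE-/- libraries were all below the 3 control libraries. Relative depth, read from the spacing of low FPKM values, was between 56.3% for control 2 and 100% for model 1. In bulk tissue, fewer cells of a type and less RNA per cell cannot be told apart.

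Promoters were sought for the 10 genes and for the 9 other LXR targets that passed the filter. Of those other targets, only Arl4c, Mertk, Mylip and Srebf1 were matched. The promoters of Abca1 and Srebf1 are printed because the values of these genes are set beside each other below. The RefSeq promoter table (GRCm38.p6, 250 bases before to 50 after a start site) matched 9 of the 10 genes by symbol with 10 promoters, and Abcg1 was not matched. The classical LXR element is a direct repeat of the half-site AGGTCA with a spacer of 4 bases, and it was searched on both strands. With up to 2 of its 12 fixed letters different, it was found in 0 of the 10 promoters and in 3.02% of all 32851 promoters of this length. With up to 3 different, a limit chosen after the sequences were seen, it was found in 1 of the 10 promoters, that of Abca1, and in 21.9% of all promoters. At the same limit it was found in 1 of the 3 Srebf1 promoters, as 2 overlapping repeats in the Arl4c promoter, and not in those of Mertk and Mylip. The Abca1 promoter is at chr4:53159846-53160145 and the matching Srebf1 promoter at chr11:60210422-60210721, both on the minus strand. They are shown in the direction of the gene, with the matched repeat in capitals.
Abca1: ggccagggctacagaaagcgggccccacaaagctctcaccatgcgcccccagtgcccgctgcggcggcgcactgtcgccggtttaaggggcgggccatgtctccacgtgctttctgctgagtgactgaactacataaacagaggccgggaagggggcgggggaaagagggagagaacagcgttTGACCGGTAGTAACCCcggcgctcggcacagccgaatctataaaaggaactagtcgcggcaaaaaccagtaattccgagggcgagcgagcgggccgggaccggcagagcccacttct
Srebf1: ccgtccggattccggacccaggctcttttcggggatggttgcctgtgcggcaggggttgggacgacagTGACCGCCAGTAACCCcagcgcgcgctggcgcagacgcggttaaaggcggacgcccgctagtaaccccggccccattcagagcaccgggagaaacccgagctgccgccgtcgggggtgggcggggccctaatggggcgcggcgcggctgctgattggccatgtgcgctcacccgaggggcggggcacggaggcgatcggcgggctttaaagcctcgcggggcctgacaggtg

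Both repeats lie on the strand opposite to the gene, at bases -67 to -52 from the start site in Abca1 and -182 to -167 in Srebf1. The Arl4c repeats also lie on the opposite strand, at bases -75 to -60 and -65 to -50. The repeats are given on their own strand, with the half-sites in capitals and the spacer in lower case. Those of Abca1 and Srebf1 share all 12 fixed letters and 14 of 16 letters in all.
Abca1 element: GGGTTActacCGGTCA
Srebf1 element: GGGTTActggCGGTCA
Arl4c element, first: GGGTCAggcgGGGTCT
Arl4c element, second: CGGTCTcccgGGGTCA
A match of letters is a description and not evidence of binding, which these data did not measure.

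On the log2(FPKM + 1) scale the exporters had the largest differences of the 10 genes between model and control and between high dose and control, although by ratio of means the low gene Ch25h (3.29) stood above Abca1 (2.47) in high dose over control. Abca1 (chromosome 4, 53030787 to 53159895, minus strand, GRCm38) had 44.8, 19.4 and 51.9 FPKM in high dose 1, 2 and 3, 78.1, 35.5 and 39.95 in model 1, 2 and 3, and 12.1, 13.5 and 21.3 in control 1, 2 and 3. The model libraries were all above the control libraries, whereas high dose 2 lay inside the control range. Abcg1 (chromosome 17, 31057675 to 31117988, plus strand) had 18.2, 12.5 and 23.9 FPKM in high dose, 60.1, 14 and 19.5 in model and 4.01, 6.28 and 6.12 in control. All 6 ApoE-/- libraries lay above all 3 control libraries, and model 1 stood far above the other 8.

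Between model and control, Abca1 averaged 51.2 ± 23.4 and 15.6 ± 4.93 FPKM (SD, n = 3 each), a ratio of means of 3.27. On the log2(FPKM + 1) scale, on which changes of low genes come out too small, the difference was 1.60 ± 0.436 (SE, 95% interval 0.61 to 2.59), with a limma adjusted p = 0.688. Abcg1 averaged 31.2 ± 25.2 and 5.47 ± 1.27 FPKM, a ratio of 5.70, with a log2 difference of 2.06 ± 0.492 (interval 0.94 to 3.18) and limma adjusted p = 0.688. Neither passed the threshold of 0.05 over all 12895 genes tested. With libraries weighted by how well they fitted their group, 684 of all genes passed. The weights were estimated from these same libraries and ran from 0.379 for control 3 to 5.92 for model 2. Both exporters were among the genes that passed, at limma adjusted p = 0.0434 for Abca1 and 0.0480 for Abcg1. Neither passed under any of the other 17 alternatives, and over all 18 the limma adjusted p ran from 0.0434 to 1 for Abca1 and from 0.0480 to 1 for Abcg1. With only the 5 libraries low in heart muscle genes (3 model, 1 control and 1 high dose), a restriction added once the data had been seen, the log2 differences between model and control were 1.14 for Abca1 and 1.90 for Abcg1. Without model 1 they were 1.25 and 1.46.

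The exporters overlapped between high dose and model. Abca1 averaged 38.7 ± 17.1 FPKM in high dose and 51.2 ± 23.4 in model, with a log2 difference of -0.42 ± 0.436 (interval -1.41 to 0.57) and limma adjusted p = 0.673. Abcg1 averaged 18.2 ± 5.71 and 31.2 ± 25.2 FPKM, with a log2 difference of -0.52 ± 0.492 (interval -1.64 to 0.60) and limma adjusted p = 0.642. Both intervals include 0 as well as decreases of more than 1 log2 unit. The sizes rested on single libraries, as the Abca1 difference was -0.08 without model 1 and 0.004 without high dose 2, and the Abcg1 difference 0.084 without model 1.

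Between high dose and control, which shares its libraries with the comparisons above, Abca1 averaged 38.7 ± 17.1 and 15.6 ± 4.93 FPKM and had a log2 difference of 1.18 ± 0.436 (interval 0.19 to 2.17), with limma adjusted p = 0.849. Abcg1 averaged 18.2 ± 5.71 and 5.47 ± 1.27 FPKM and had a log2 difference of 1.54 ± 0.492 (interval 0.42 to 2.66), with limma adjusted p = 0.832. The ratio of Abcg1 to Abca1 FPKM, both scaled by length, stayed between 0.288 in control 3 and 0.769 in model 1.

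**Figure D1:**
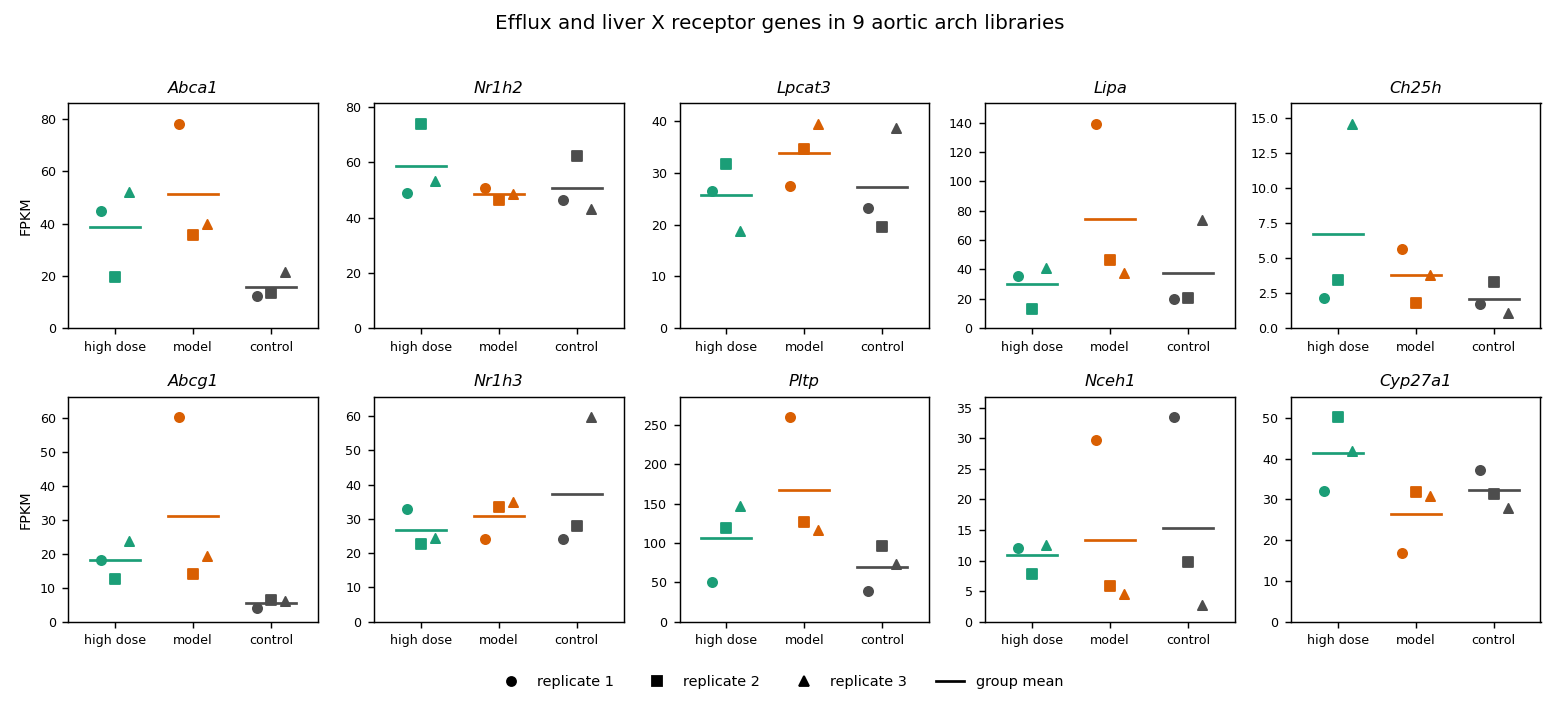
FPKM of the 10 genes in each library (linear axes that start at 0), with high dose, model and control side by side, 1 symbol per replicate and a line at the group mean. Abca1 and Abcg1 are above all control values in every model library, while Nr1h2 lies between 43.1 and 73.9 FPKM in all 9 libraries.

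The receptors themselves showed no comparable gap. Nr1h2 (chromosome 7, 44549616 to 44553951, minus strand), which encodes LXR beta, had 48.8, 73.9 and 53.1 FPKM in high dose, 50.7, 46.3 and 48.5 in model and 46.2, 62.4 and 43.1 in control. Its highest library was only 1.71 times its lowest, and 11.5% of all genes tested varied less around their own mean. Nr1h3 (chromosome 2, 91184061 to 91202834, minus strand), which encodes LXR alpha, had 32.9, 22.8 and 24.3 FPKM in high dose, 24.3, 33.5 and 35.0 in model and 24.1, 27.9 and 59.6 in control. The groups overlapped for both receptors, and control 3 alone raised the control mean of Nr1h3.

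Nr1h2 had a log2 difference of -0.042 ± 0.233 between model and control (interval -0.57 to 0.49) and 0.25 ± 0.233 between high dose and model (interval -0.28 to 0.77), with limma adjusted p = 0.988 and 0.640. For Nr1h3 the same differences were -0.16 ± 0.346 (interval -0.95 to 0.62) and -0.21 ± 0.346 (interval -0.99 to 0.58), with limma adjusted p = 0.960 and 0.807. The high dose and control groups differed by 0.20 ± 0.233 for Nr1h2 and -0.37 ± 0.346 for Nr1h3, with limma adjusted p = 0.923 and 0.900. Nr1h2 stood above Nr1h3 in 8 of 9 libraries, at ratios of 1.38 to 3.24, and below it in control 3, at 0.724. Control 3 also had the highest summed FPKM of 4 white fat markers, 18290 beside 1526 to 12160 in the other 8 libraries. Fabp4 made up 17310 of that sum. Adipoq (593.5) and Plin1 (391.4) were also highest in control 3, whereas Lep (0.141) was not. The summed FPKM of 4 brown fat markers was highest there too, 13630 beside 1338 to 4806 elsewhere. The part of fat in the Nr1h3 level of control 3 was not tested. A non-coding gene, Gm13783, overlaps exons of Nr1h3 on the same strand, so reads of the 2 may be shared.

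The set holds a pair of phospholipid genes. Pltp, whose product moves phospholipid between lipoproteins, was the most abundant member in every group, at 50.9, 119 and 147 FPKM in high dose, 259, 127 and 116 in model and 38.7, 96.5 and 73.2 in control. All 3 model libraries lay above all control libraries, and high dose 1 lay inside the control range. Pltp (chromosome 2, 164839518 to 164857711, minus strand) averaged 167 ± 79.7 FPKM in model and 69.5 ± 29.1 in control, with a log2 difference of 1.25 ± 0.508 (interval 0.10 to 2.41) and limma adjusted p = 0.746. In high dose it averaged 106 ± 49.4 FPKM, with a log2 difference from model of -0.69 ± 0.508 (interval -1.85 to 0.46) and limma adjusted p = 0.542. That difference was -0.24 without high dose 1, -0.33 without model 1 and -1.60 in the 5 libraries low in heart muscle genes. High dose differed from control by 0.56 ± 0.508, limma adjusted p = 0.895. Exons of Ctsa overlap Pltp on the opposite strand, and without a stated strand setting reads of the 2 genes cannot be told apart there.

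Lpcat3 encodes an enzyme that puts polyunsaturated chains into membrane phospholipid. It had 26.5, 31.7 and 18.9 FPKM in high dose, 27.4, 34.7 and 39.5 in model and 23.3, 19.6 and 38.7 in control, and all groups overlapped. Its log2 difference was 0.35 ± 0.304 between model and control (interval -0.34 to 1.04), -0.40 ± 0.304 between high dose and model (interval -1.09 to 0.29) and -0.051 ± 0.304 between high dose and control (interval -0.74 to 0.64), with limma adjusted p = 0.858, 0.554 and 0.985. Lpcat3 (chromosome 6, 124663027 to 124704418, plus strand) shares exonic sequence with Emg1 on the other strand.

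The cholesteryl ester hydrolases gave wide spreads. Lipa (chromosome 19, 34492318 to 34527474, minus strand), which encodes lysosomal acid lipase, had 35.8, 13.3 and 41.0 FPKM in high dose, 139, 46.2 and 37.6 in model and 19.8, 20.4 and 73.5 in control. Model 1 was the highest library and high dose 2 the lowest, a span of 10.5 times, and control 3 was above 2 of 3 model libraries. Between model and control Lipa averaged 74.4 ± 56.4 and 37.9 ± 30.8 FPKM, with a log2 difference of 0.98 ± 0.678 (interval -0.56 to 2.53) and limma adjusted p = 0.823. This difference was 1.59 without control 3, 0.41 without model 1 and -0.23 in the 5 libraries low in heart muscle genes. In high dose and model Lipa averaged 30.0 ± 14.7 and 74.4 ± 56.4 FPKM, with a log2 difference of -1.18 ± 0.678 (interval -2.72 to 0.36) and limma adjusted p = 0.442. Without model 1 this difference was -0.61, and without high dose 2 it was -0.69. High dose and control differed by -0.19 ± 0.678, limma adjusted p = 0.977.

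Nceh1 (chromosome 3, 27182965 to 27284608, plus strand), the neutral cholesterol ester hydrolase gene, had 12.1, 7.88 and 12.6 FPKM in high dose, 29.6, 5.86 and 4.50 in model and 33.4, 9.83 and 2.77 in control. Its highest library was a control and so was its lowest, and the 3 high dose libraries lay between them. Log2 differences were -0.094 ± 0.844 between model and control (interval -2.01 to 1.83), 0.15 ± 0.844 between high dose and model (interval -1.77 to 2.07) and 0.059 ± 0.844 between high dose and control (interval -1.86 to 1.98), with limma adjusted p = 0.993, 0.949 and 0.994. Such intervals do not exclude a change of several-fold in either direction. Control 1, the highest for Nceh1, was also the highest in heart muscle genes, and model 1, the next, in macrophage markers. High dose 3, however, had 12.6 FPKM of Nceh1 at a heart muscle sum of 17580 FPKM, and high dose 1 had 12.1 at 27.7. Model 2, next after model 1 in macrophage markers with a sum of 3917 FPKM, had 5.86. The part of heart muscle and macrophages in the Nceh1 values was not tested. The ratio of Lipa to Nceh1 FPKM ran from 0.591 in control 1 to 26.6 in control 3.

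The oxysterol enzymes stood at the lower end and in the middle of the set. Ch25h (chromosome 19, 34473778 to 34475164, minus strand), the single-exon cholesterol 25-hydroxylase gene, was the least abundant member in every group. It had 2.17, 3.42 and 14.6 FPKM in high dose, 5.67, 1.82 and 3.79 in model and 1.75, 3.29 and 1.08 in control, so that high dose 3 alone stood above all the others. Log2 differences were 0.62 ± 0.599 between model and control (interval -0.74 to 1.99), 0.43 ± 0.599 between high dose and model (interval -0.94 to 1.79) and 1.05 ± 0.599 between high dose and control (interval -0.31 to 2.41), with limma adjusted p = 0.880, 0.763 and 0.888. Without high dose 3 the difference was -0.26 between high dose and model and 0.365 between high dose and control. A non-coding gene on the opposite strand, Gm26902, overlaps the Ch25h exon.

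Cyp27a1 (chromosome 1, 74713574 to 74737892, plus strand), which encodes the mitochondrial sterol 27-hydroxylase, was the only member without overlap between high dose and model. It had 31.98, 50.1 and 41.7 FPKM in high dose, 16.8, 31.7 and 30.8 in model and 37.3, 31.3 and 27.9 in control. The margin between high dose 1 and model 2 was small, at 31.98 against 31.69 FPKM. High dose and model averaged 41.3 ± 9.05 and 26.4 ± 8.32 FPKM, with a log2 difference of 0.65 ± 0.290 (interval -0.01 to 1.31) and limma adjusted p = 0.373. It was 0.37 without model 1 and 0.32 in the 5 libraries low in heart muscle genes. Model and control differed by -0.32 ± 0.290 (interval -0.98 to 0.34, limma adjusted p = 0.873), and high dose and control by 0.34 ± 0.290 (interval -0.32 to 1.00, limma adjusted p = 0.894).

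**Figure D2:**
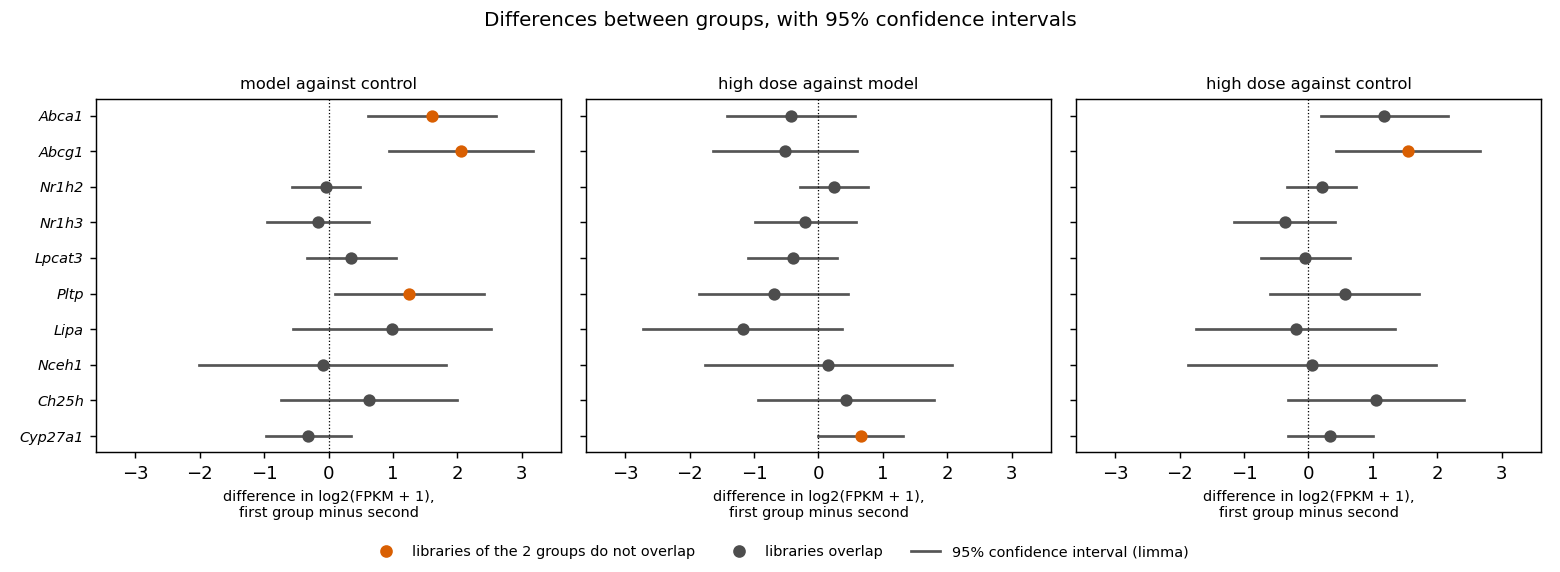
Differences in log2(FPKM + 1) between groups for each gene, 1 panel per comparison, with 95% confidence intervals from limma; orange points mark genes whose libraries do not overlap between the 2 groups. Only the intervals of Abca1, Abcg1 and Pltp between model and control, and of Abca1 and Abcg1 between high dose and control, lie wholly to one side of 0, and none of the 10 genes passed after adjustment in any panel.

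Counted together, 0 of the 10 genes passed at a limma adjusted p under 0.05 in any of the 3 comparisons, as did 0% of all 12895 genes. Between model and control, 3 genes (Abca1, Abcg1 and Pltp) had an unadjusted p under 0.05, against 6.37% of all genes, and the same 3 were higher in model without overlap, against 6.91% of all genes. None was lower without overlap, against 9.06% (16% of all genes in either direction). With array weights 2 of the 10 passed and 684 of all genes did. The median log2 difference of the 10 was 0.49, with 6 higher and 4 lower, where the median over all genes was -0.01.

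In high dose against model, 0 of the 10 had an unadjusted p under 0.05, against 13.4% of all genes. Cyp27a1 was the only 1 higher without overlap, against 11.7% of all genes, and none was lower without overlap, against 10.9% (22.6% in either direction). The median of the 10 was -0.30, with 4 higher and 6 lower, beside 0.001 over all genes. Array weights called 6 genes of the whole table and 0 of the 10. A share of 1 in 10 is close to the background in this comparison. In high dose against control, 2 of the 10 (Abca1 and Abcg1) had an unadjusted p under 0.05, against 5.44%, and 1 (Abcg1) was higher without overlap, against 3.66%; none was lower without overlap, against 5.02% (8.68% in either direction). The median there was 0.27 for the 10 and 0.002 for all genes.

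Within a group, levels per length can be ordered. In high dose the order of means was Pltp, Nr1h2, Cyp27a1, Abca1, Lipa, Nr1h3, Lpcat3, Abcg1, Nceh1 and Ch25h, and the ranges of all neighbours overlapped. In model it was Pltp, Lipa, Abca1, Nr1h2, Lpcat3, Abcg1, Nr1h3, Cyp27a1, Nceh1 and Ch25h, and only Nr1h2 and Lpcat3 were neighbours without overlap. In control it was Pltp, Nr1h2, Lipa, Nr1h3, Cyp27a1, Lpcat3, Abca1, Nceh1, Abcg1 and Ch25h, and only Abcg1 and Ch25h did not overlap. Abca1 thus ranked 4 in high dose, 3 in model and 7 in control. Model 1 was the highest of the 9 libraries for 4 of the 10 genes, and control 1 and control 3 were each the lowest for 3.

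Macrophage markers were not evenly spread over the same libraries. The summed FPKM of 14 markers, all detected, was 612, 990.4 and 3305 in high dose, 7247, 3917 and 1606 in model and 427, 794 and 253 in control. Lyz2 was the largest part of this sum in every library, at 4275 FPKM in model 1, 2997 in model 2 and 1793 in high dose 3. Model 2 stood above high dose 3 by the sum and by Lyz2, Adgre1, Itgam and Csf1r singly, but below it by each of the other markers. In 13 of the 14 the model libraries were all above the control libraries, with Cd163 the exception, against 6.91% of all genes, and in 3 of the 14 every high dose library lay above every control library. Over all genes, 3.66% were higher in high dose than in control without overlap. High dose and model separated in 1 of the 14 (Adgre1), which was lower in high dose, a share below the 10.9% of all genes. On the log2 scale, however, all 14 were lower in high dose than in model, although by mean FPKM 1 (Cd14) was higher. The median log2 difference of the 14 was -0.99, beside 0.001 over all genes. An unadjusted limma p under 0.05 was reached by 2 of the 14, against 13.4% of all genes, and 0 passed after adjustment. Per unit of Cd68, a lysosomal protein of macrophages, Abca1 had ratios of 2.35, 0.558 and 0.360 in high dose, 0.197, 0.526 and 0.622 in model and 1.02, 0.830 and 2.54 in control. The corresponding Abcg1 ratios were 0.954, 0.360 and 0.166 in high dose, 0.152, 0.208 and 0.303 in model and 0.338, 0.387 and 0.729 in control. Both Cd68 ratios were lower in every model library than in every control library, but this depended on the marker. Per unit of Adgre1, the F4/80 gene, Abcg1 had 9.81, 4.71 and 3.44 in high dose, 4.87, 0.504 and 2.50 in model and 2.22, 3.31 and 3.53 in control, with overlap, while Abca1 per Adgre1 was again lower in model (1.28 to 6.33) than in control (6.74 to 12.3). Per unit of Csf1r, the receptor gene for macrophage growth factor, a marker taken up after the other ratios were seen, Abca1 had 1.15 to 2.34 in model and 0.790 to 3.15 in control, and Abcg1 0.455 to 1.80 in model and 0.261 to 0.907 in control, both with overlap. The order of the ratios therefore changed with the marker chosen. High dose 1 had 44.8 FPKM of Abca1 beside a marker sum of 612 FPKM, which lay within the control range of 253 to 794. Lyz2 alone made up 422 FPKM of that sum. Singly, Cd68, Fcgr1 and Gpnmb were above every control library in high dose 1, at 19.0, 0.900 and 25.6 FPKM. Cd163 was below every control library there, and the other markers lay inside their control ranges. The part of macrophage number in the exporter values was not tested. Other lists moved with the same groups. The summed FPKM of 4 nerve and adrenal medulla markers was 1863, 105 and 5.79 in high dose, 1.16, 0.206 and 2.52 in model and 36.7, 423 and 104 in control, so that the model group lay below both others, as did all 4 genes singly. The summed FPKM of 4 red cell markers was 2088, 2298 and 15240 in high dose, 47460, 30570 and 17200 in model and 12730, 10300 and 7100 in control, so that the model group lay above both others. Singly, 4 of 4 red cell genes were lower in high dose than in model without overlap, against 10.9% of all genes. Of the same 4, 3 were higher in model than in control, against 6.91%. For the nerve and adrenal medulla genes the shares over all genes were 9.06% lower in model than in control and 11.7% higher in high dose than in model. Their part in the differences of the 10 genes was not tested.

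**Figure D3:**
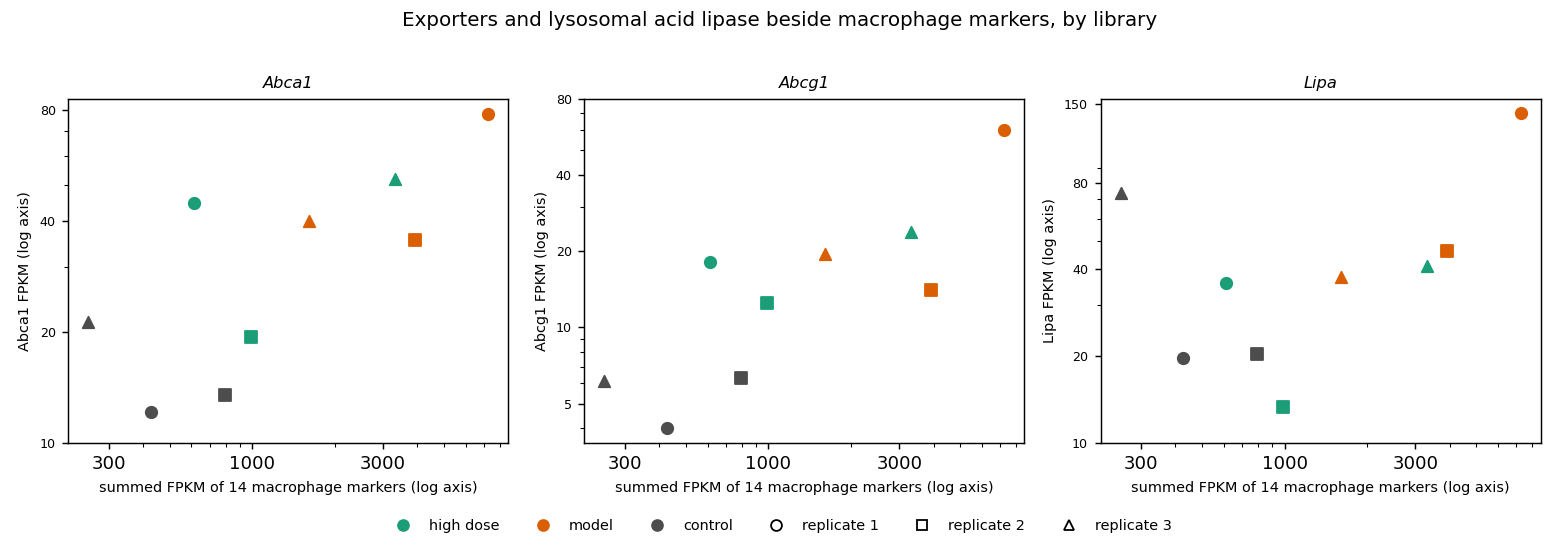
FPKM of Abca1, Abcg1 and Lipa (vertical, log axis) against the summed FPKM of 14 macrophage markers (horizontal, log axis), 1 point per library, coloured by group. Lyz2 is the largest part of the sum in every library. Model 1 is at the top right of each panel with a marker sum of 7247 FPKM, high dose 1 holds 44.8 FPKM of Abca1 at a marker sum of 612, and control 3 holds 73.5 FPKM of Lipa at the lowest sum, 253.

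Genes with the most similar profile were found by the mean absolute difference between log2(FPKM + 1) profiles over the 9 libraries, each centred on its own mean. These are descriptions over libraries that share depth and tissue make-up, with no test. Abcg1 was nearest to Abca1 of all genes compared, at 0.293 log2 units, followed by Csf2rb2 at 0.296 and Ctsb at 0.299. Abca1 was nearest to Ctsb at 0.218, Csf2rb at 0.266 and Abcg1 at 0.293. Csf2rb and Csf2rb2 are close copies of each other, and reads may be split between them. Of the genes nearest to Lipa, Psap lay at 0.287 and Amz1 at 0.307.

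Pltp was nearest to Rasa4, Anxa4 and Myo1e, at 0.189, 0.198 and 0.216. Ch25h was nearest to Cx3cr1, Ccl7 and Ms4a4a, at 0.179, 0.227 and 0.25, all 3 of which were also highest in high dose 3. Nceh1 was nearest to Slc7a7, Wfs1 and Spsb4, at 0.312, 0.371 and 0.391. The flatter members had smaller distances, which a measure of absolute differences tends to give to genes that vary little. Nr1h2 was nearest to Znhit6, Btf3 and Cabin1 (0.049, 0.058 and 0.063), Nr1h3 to Rbks, Mrs2 and Tmbim6 (0.076, 0.080 and 0.085), Lpcat3 to Tmem242, Tesk1 and Rgl3 (0.067, 0.123 and 0.127), and Cyp27a1 to Aarsd1, Ggnbp1 and Cnbp (0.119, 0.135 and 0.136).

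Of 47 other genes of the pathway, 39 passed the filter. The efflux genes Abcg5 and Abcg8, the LXR target Apoc2, the receptor genes Nr1h5 and Rxrb, and Soat2, Cyp11a1 and Sult2b1 did not. Of the 39, 0 passed at a limma adjusted p under 0.05 in any comparison, while 5, 6 and 2 had an unadjusted p under 0.05 in model against control, high dose against model and high dose against control, where 6.37%, 13.4% and 5.44% of all genes did. Their median log2 differences were 0.19, -0.04 and 0.08. Without overlap, 3 were higher and 2 lower in model than in control, against 6.91% and 9.06% of all genes. In high dose, 3 were higher and 5 lower than in model, against 11.7% and 10.9%. Relative to control, 3 were higher and 0 lower in high dose, against 3.66% and 5.02%. By direction, the genes higher than in control exceeded the share over all genes in both comparisons with control, as did those lower in high dose than in model. In either direction 16%, 22.6% and 8.68% of all genes did not overlap, and with both directions counted the 39 did not exceed that background in any comparison.

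Srebf1, the LXR target that encodes the lipogenic factor SREBP-1, had a pattern unlike that of Abca1. Its FPKM is for the whole gene and cannot be assigned to the promoter printed above. It had 142, 85.0 and 101 FPKM in high dose, 25.9, 36.3 and 40.6 in model and 12.4, 21.9 and 40.9 in control. All 3 high dose libraries stood above all 6 others, and model and control overlapped. High dose and model averaged 109 ± 29.2 and 34.2 ± 7.56 FPKM, with a log2 difference of 1.64 ± 0.409 (interval 0.71 to 2.57) and limma adjusted p = 0.232. High dose and control, at 109 ± 29.2 and 25.1 ± 14.5 FPKM, differed by 2.20 ± 0.409 (interval 1.27 to 3.13), with limma adjusted p = 0.569. Model and control differed by 0.56 ± 0.409 (interval -0.37 to 1.49), with limma adjusted p = 0.838. Abca1 and Srebf1 were not tested against each other.

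Srebf1's own target Scd1, a desaturase gene that is also an LXR target, had a lower mean in high dose than in model, where Srebf1 had a higher one. It had 2647, 463 and 1120 FPKM in high dose, 1990, 7467 and 9250 in model and 121, 249.7 and 3389 in control, with overlap in every comparison. Its log2 difference was -2.21 ± 1.24 between high dose and model, 3.46 ± 1.24 between model and control and 1.24 ± 1.24 between high dose and control (limma adjusted p = 0.433, 0.713 and 0.910). Scd2, which encodes a related desaturase, differed by 0.92 ± 0.468 between high dose and control, with limma adjusted p = 0.888, and high dose 1 had 142 FPKM beside 58.8 and 41.2 in the other high dose libraries.

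Cholesterol leaves the lysosome with the help of the small sterol carrier encoded by Npc2. Npc2 had 85.0, 44.4 and 91.7 FPKM in high dose, 180.5, 148 and 155 in model and 52.7, 72.2 and 85.8 in control. Every model library lay above every library of both other groups, which overlapped each other. Its log2 difference was 1.21 ± 0.319 between model and control (interval 0.49 to 1.94) and -1.18 ± 0.319 between high dose and model (interval -1.91 to -0.46), with limma adjusted p = 0.688 and 0.248. Both differences share the model libraries.

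The LXR targets Mertk, a receptor for dying cells, and Smpdl3a, a phosphodiesterase gene, were lower in high dose than in model without overlap. Mertk averaged 11.8 ± 5.50 FPKM in high dose, 24.0 ± 10.3 in model and 10.6 ± 3.94 in control, with log2 differences of -1.01 ± 0.438 between high dose and model and 1.09 ± 0.438 between model and control (limma adjusted p = 0.370 and 0.746). Smpdl3a averaged 42.2 ± 12.8, 74.8 ± 13.0 and 58.8 ± 13.7 FPKM, with a log2 difference of -0.84 ± 0.296 between high dose and model and -0.49 ± 0.296 between high dose and control (limma adjusted p = 0.322 and 0.888). Higher in high dose than in model without overlap were the coactivator gene Ncoa1, at 7.70 ± 0.934 and 4.90 ± 0.803 FPKM, and the oxysterol 7-alpha-hydroxylase gene Cyp7b1, at 2.41 ± 0.757 and 1.03 ± 0.283 FPKM. Their log2 differences were 0.56 ± 0.191 and 0.73 ± 0.290, with limma adjusted p = 0.311 and 0.352. Cyp7b1 was also above all control libraries, at a log2 difference of 0.94 ± 0.290 and limma adjusted p = 0.832, while Ncoa1 was lower in model than in control, at -0.29 ± 0.191 and limma adjusted p = 0.810.

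The remaining genes named by the same rule were Apoa1, Rxrg and Star. Apoa1, the gene of the main acceptor protein for efflux and normally a liver and gut gene, averaged 3.30 ± 3.30 FPKM in high dose, 0.954 ± 0.426 in model and 20.7 ± 28.5 in control, where control 2 had 53.6, and all model libraries lay below all control libraries. It differed by -2.56 ± 0.957 between model and control and by -1.75 ± 0.957 between high dose and control (limma adjusted p = 0.717 and 0.888). The liver marker Alb was also highest in control 2, at 12.6, 0.268 and 1.27 FPKM in high dose, 0.551, 2.27 and 10.02 in model and 20.5, 287 and 13.2 in control. Another liver marker, Cyp2e1, went otherwise. It was highest in high dose 1, at 770 FPKM, and averaged 204 FPKM in model and 203 in control. The part of liver tissue in the Apoa1 values was not tested. The retinoid X receptor gene Rxrg differed by -0.55 ± 0.468 between model and control, and Star, a mitochondrial cholesterol carrier gene, by -0.78 ± 0.467 between high dose and control (limma adjusted p = 0.856 and 0.888), both with overlap.

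**Figure D4:**
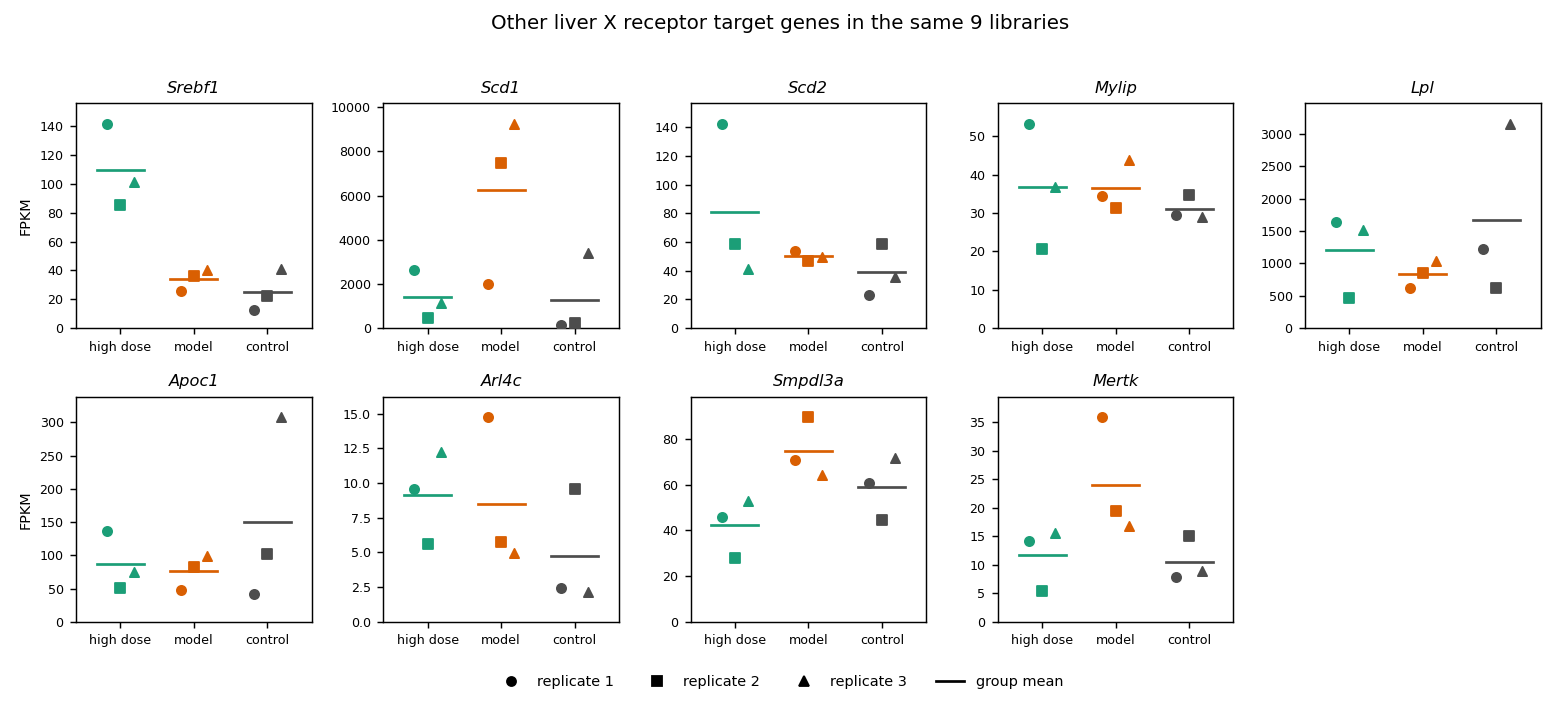
FPKM of 9 other LXR target genes in each library (linear axes that start at 0), with high dose, model and control side by side and a line at the group mean. Srebf1 lies between 85.0 and 142 FPKM in high dose and at or below 40.9 in the other 6 libraries, while Scd1 reaches 7467 and 9250 FPKM in model 2 and 3.

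**Figure D5:**
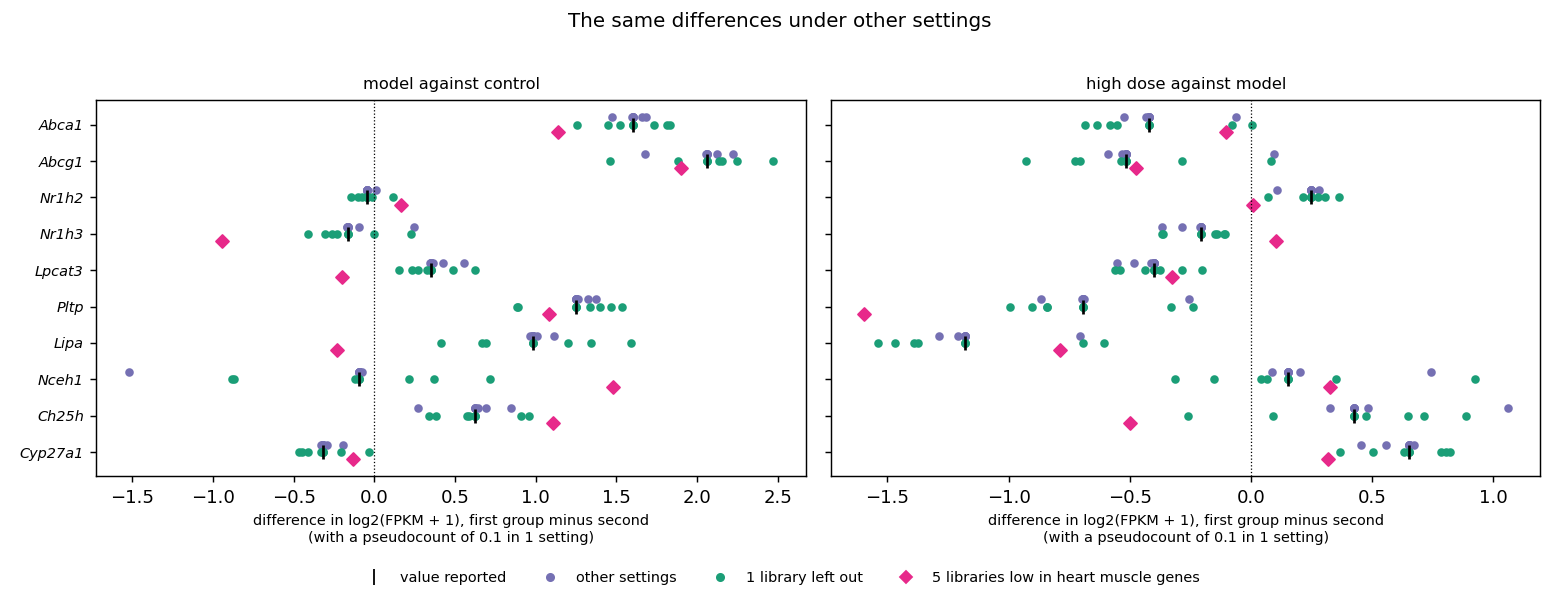
Differences in log2(FPKM + 1) for each gene between model and control (left) and high dose and model (right), as reported (black bars) and under other settings: other scalings, filters, weights and designs (purple), 1 library left out (green) and only the 5 libraries low in heart muscle genes (pink). Abca1 and Abcg1 keep a positive difference between model and control at every point shown, from 1.14 to 1.83 and from 1.46 to 2.47, and Nceh1 spans 0 in both panels.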

How the data were processed

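The authors deposited 1 table of FPKM values, 9 columns for 9 libraries. The submitters' processing notes name GRCm38.p5 and mm10. No source used here gives the aligner, counting tool, gene lengths or strand setting. No counts were at hand, so no count model or counting interval was used. Columns were matched to titles by name (AS to model, HD to high dose, the misspelt Contorl to control).

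On log2(FPKM + 1), limma 3.58.1 (R 4.3.3) compared the groups, all 9 libraries in 1 fit with a mean per group, empirical Bayes with trend, two-sided, Benjamini-Hochberg adjusted over the 12895 genes with at least 1 FPKM in at least 3 libraries. The threshold was an adjusted p under 0.05. The procedure was also run on simulated data with independent noise for each gene and library, unlike these libraries, where markers of neighbouring tissue moved together. The outcome is not reported here and is not used as support. Positions are from GENCODE M21 (GRCm38) and promoters from RefSeq (GRCm38.p6). Relative depth came from steps between values under 0.2 FPKM. Figures used matplotlib 3.10.9, pandas 2.3.3 and numpy 2.4.6 in Python 3.11.15.

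The members, lists and tests were chosen with earlier results of these data known. Named genes were the 10 members, the 3 genes most like each in profile, leaving out clone and predicted names (1 gene is not reported here), and of the pathway list the 3 of smallest p in each direction per comparison. Alternatives were median-ratio rescaling, quantile normalization, a mean of at least 5 FPKM, no filter, a pseudocount of 0.1, only the 2 groups compared, array weights, the replicate number as a block and each library left out; use of the 5 libraries with Myh6 under 10 FPKM was added after seeing the data.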

Additional observations from a re-analysis of the deposited data

How the results depend on the processing

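Of the log2 differences of the 10 genes under 18 alternatives per comparison (17 for Ch25h, which a mean of at least 5 FPKM removed), 166 of 179 kept their direction and side of the threshold between model and control, 171 of 179 between high dose and model and 166 of 179 between high dose and control. The causes of the other values were not tested. Array weights called 684 genes and 2 of the 10 (Abca1 and Abcg1) between model and control, and 6 genes between high dose and model. Only the 2 groups compared gave 1 gene between high dose and model. The 5 libraries low in heart muscle genes, where the lone control and high dose libraries are assumed to vary like the model ones, gave 591 genes between high dose and model and 229 between high dose and control, and 0 of the 10 genes in either. With 1 library left out, genes called between high dose and model ran from 0 to 45, the highest without high dose 3, with 0 of the 10 among them.

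Differences that changed sign between model and control were Nr1h2 at 0.011 with quantile normalization, Nr1h3 at 0.244 with array weights, and Nr1h2 at 0.164, Lpcat3 at -0.202, Lipa at -0.231 and Nceh1 at 1.478 in the 5 libraries. With 1 library left out they ran from -0.145 to 0.116 for Nr1h2, from -0.409 to 0.227 for Nr1h3 and from -0.879 to 0.716 for Nceh1. Between high dose and model, Abcg1 was at 0.094 with array weights, and Nr1h3 at 0.104 and Ch25h at -0.497 in the 5 libraries; with 1 library left out, Abca1 ran from -0.685 to 0.004, Abcg1 from -0.929 to 0.084, Nceh1 from -0.314 to 0.926 and Ch25h from -0.259 to 0.888. Between high dose and control, Nceh1 was at -0.008 with quantile normalization, Lpcat3 at 0.002, Lipa at 0.256 and Nceh1 at -0.779 with array weights, and Pltp at -0.515 in the 5 libraries; with 1 library left out, Nr1h3 ran from -0.615 to 0.021, Lpcat3 from -0.247 to 0.225, Lipa from -0.509 to 0.412 and Nceh1 from -0.726 to 0.869.

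With the replicate number as a block, 0 genes were called in any comparison, and adjusted p was 0.883 for Abca1 and Abcg1 between model and control. Libraries of the same number were not consistently alike. Their deviations from the group mean correlated across genes between -0.522 and 0.306, and not every library correlated best with its own number. These correlations cannot decide whether the numbers pair the libraries, because neighbouring tissue also differed within each group.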

Other observations

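Summed FPKM of the other marker lists, each with all members in the table and none under 0.1 FPKM throughout, was as follows. The smooth muscle list (7 genes) lay between 459 and 2725 in high dose, 1817 and 4469 in model and 1648 and 3155 in control, and the endothelial list (4 genes) between 198 and 332, 349 and 399, and 303 and 353. The brown fat list (4 genes) reached 13630 in control 3 and was between 1338 and 4806 elsewhere. The airway list (3 genes) reached 21420 in high dose 2 and 6661 in control 2, and the lung alveolus list (3 genes) 1682 in control 2. The skeletal muscle list (4 genes) 6782 in high dose 2. The liver list (3 genes) reached 782 in high dose 1, of which Cyp2e1 made up 770.0, while Alb was highest in control 2 at 287 FPKM.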
